A study of Mus musculus with 8 samples.

Results

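The genes described here make ketone bodies in the liver or carry them out of the cell: Bdh1, Acat1 and Slc16a1. Open chromatin near them was read from ATAC-seq, in which a transposase cuts accessible DNA. The series has 49587 consensus regions of open chromatin, and a region was given to one of the genes when that gene was its nearest protein-coding gene on mm10, by distance to the gene's span, within 100 kb. This gave 28 regions, of which 14 belonged to Bdh1, 5 to Acat1 and 9 to Slc16a1. The choice used positions and gene names only.

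In a fast, fatty acids released from fat are oxidised in liver mitochondria to acetyl-CoA, part of which is turned into acetoacetate and then β-hydroxybutyrate for use by the brain, heart and muscle. Acat1 encodes the mitochondrial acetoacetyl-CoA thiolase, which joins acetyl-CoA units at the start of the pathway. Bdh1 encodes the mitochondrial dehydrogenase that interconverts acetoacetate and β-hydroxybutyrate, and Slc16a1 encodes the monocarboxylate transporter MCT1, which moves lactate, pyruvate and ketone bodies across the plasma membrane.

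The flash-frozen livers came from male C57BL/6 mice aged 9 weeks and fasted for 24 h, with 2 libraries for each of 4 genotypes. These were wild type (WT), a liver knockout of Cpt2 (Cpt2 L-/-), a Ppara knockout (Ppara -/-) and the double knockout (Cpt2 L-/- ; Ppara -/-). The loss of Ppara is labelled as whole-body for the double knockout, and for the Ppara knockout no tissue is named. Cpt2 is needed to bring long-chain fatty acids into mitochondrial oxidation, and Ppara is a nuclear receptor that fatty acids activate and that drives fasting genes. The driver of the liver deletion of Cpt2 is not given in the sources used here, nor is it said that the 2 libraries of a genotype came from separate mice, so p-values measure the spread between libraries, which may be technical. WT and Cpt2 knockout are called Ppara-intact here, and Ppara knockout and double knockout Ppara-null.

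The peak lists were longer in Ppara-intact libraries (28733 to 39296 peaks) than in the Ppara-null ones (18132 to 22715), and list length touches every count that follows. The number in the peak names was 441, 443, 446 or 4717 for the Ppara-intact libraries and 6831 to 6834 for the others. What it stands for is not stated, and were it a batch, its effect and that of Ppara loss could not be told apart by any split of these libraries. Read depth is unknown, since the files hold no counts. As a check of the tissue, 8 of 10 hepatocyte marker genes had a called region within 1 kb of a gene end in all 8 libraries, while none of 5 Kupffer cell and leukocyte markers had one in any library. Of 5 stellate cell markers, 1 to 2 had one in Ppara-intact libraries and 0 in Ppara-null ones, and of 5 cholangiocyte markers 2 and 0 to 1. Of 5 endothelial markers it was 1 and 0 to 1. The part of such cells in the results was not tested, and in bulk tissue fewer cells of a type and less open chromatin per cell cannot be told apart.

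The annotated start of Bdh1 (chromosome 16, 31422297 to 31458901, plus strand) lies in the region at chr16:31422022-31422444, and that of Slc16a1 (chromosome 3, 104638664 to 104658462, plus strand) in the region at chr3:104638126-104639369. The 250 bases before each start are shown because calls at these start regions differed between libraries. They come from RefSeq on GRCm38.p6, the assembly of mm10, at chr16:31422047-31422296 and chr3:104638414-104638663. RefSeq promoters matched 2 of the 3 genes, and Acat1 (chromosome 9, 53580522 to 53610350) is named only. Capitals mark GGGCGG, a GC box.
Bdh1: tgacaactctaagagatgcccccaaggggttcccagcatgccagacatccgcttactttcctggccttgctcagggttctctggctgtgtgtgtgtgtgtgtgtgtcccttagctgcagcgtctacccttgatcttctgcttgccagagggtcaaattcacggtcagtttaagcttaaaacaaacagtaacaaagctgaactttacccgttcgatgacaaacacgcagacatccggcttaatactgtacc
Slc16a1: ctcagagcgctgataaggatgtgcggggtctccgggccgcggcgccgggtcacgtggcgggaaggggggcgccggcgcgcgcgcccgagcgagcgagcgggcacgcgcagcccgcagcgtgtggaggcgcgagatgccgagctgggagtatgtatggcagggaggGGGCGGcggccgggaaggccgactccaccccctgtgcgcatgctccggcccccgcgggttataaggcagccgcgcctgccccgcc

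These sequences differ in base composition. Within the 300 bases from 250 before to 50 after the start, Slc16a1 held 42 CpG dinucleotides, at percentile 97.0 of 32817 mouse promoter windows of this length, and Bdh1 held 7, the median of those windows. The GC share was 73.7% at Slc16a1 and 48.3% at Bdh1. On either strand, GGGCGG occurred 1 time in the Slc16a1 window and 0 times in that of Bdh1, and 35.6% of all windows hold it. Neither window held AGGTCA, the half-site of many nuclear receptors (16.3% of all windows), its direct repeat AGGTCANAGGTCA (0.0396%), CCAAT (37.4%) or TATAAA (13.6%). AGGTCA lies within AGGTCANAGGTCA. A missing match says only that these letters were not in the window. A further RefSeq start of Bdh1, at 31428753, had no consensus region over its window.

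The regions lay mostly outside the genes. Of the 28 regions, 11 (39.3%) overlapped the span of a gene, against 65.5% of all consensus regions. At Bdh1, 5 regions lay before the start, 1 at the start, 3 inside and 5 beyond the far end, the farthest of them 62.9 kb away. All 5 Acat1 regions overlapped the gene, 4 inside it and 1 at its upper-coordinate end. Slc16a1 had 3 regions before the start, 1 at the start, 1 inside and 4 beyond the far end. Regions were 201 to 1244 bp long, with a median of 394 bp, and the longest was that at the start of Slc16a1.

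Fewer of the 28 regions were called in Ppara-null livers. A call means that a peak of the library overlapped the region by at least 1 bp. WT libraries called 19 and 22 regions, Cpt2 knockout libraries 24 and 24, Ppara knockout libraries 12 and 8, and double knockout libraries 14 and 10. The lowest Ppara-intact library thus lay above the highest Ppara-null one. Ppara-intact libraries called 22.2 ± 2.36 (SD, n = 4) and Ppara-null libraries 11 ± 2.58 (SD, n = 4) regions, a difference of -11.25, larger than the SD on either side.

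Each of the 3 genes shared in this. Bdh1 had 8 and 9 of its 14 regions called in WT, 13 and 12 in Cpt2 knockout, 6 and 4 in Ppara knockout, and 6 and 5 in double knockout. Acat1 had 4 and 5 of its 5 regions called in WT, 4 and 4 in Cpt2 knockout, 2 and 1 in Ppara knockout, and 3 and 2 in double knockout. Slc16a1 had 7 and 8 of its 9 regions called in WT, 7 and 8 in Cpt2 knockout, 4 and 3 in Ppara knockout, and 5 and 3 in double knockout. For none of the 3 genes did the Ppara-intact and Ppara-null counts overlap. Every Ppara-intact count also lay above every Ppara-null one in 69.8% of the 63 other genes with 14 regions, 32.3% of the 814 with 5 and 56.4% of the 227 with 9. Both Cpt2 knockout counts of Bdh1 lay above its WT counts, as in 27% of the 63 other genes with 14 regions, and in the lists cut to equal length described below they did not (4 and 5 against 5 and 4).

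The consensus regions as a whole also had fewer calls. Across libraries, 67.9% to 85.7% of the 28 regions were called in Ppara-intact livers, and 28.6% to 50% without Ppara. Over all 49587 regions, the shares were 56.9% to 77.7% and 35.5% to 44.5%. Of the 28 regions, 22 were called in fewer Ppara-null than Ppara-intact libraries, 6 in as many and 0 in more. Over all regions, 66.9% were called in fewer, 25.8% in as many and 7.28% in more. The median change per region was -1 library for the 28 regions and -1 for all regions.

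**Figure D1:**
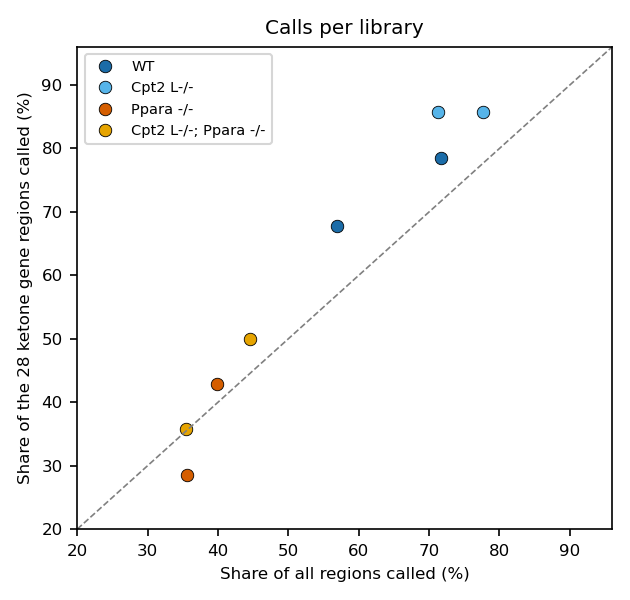
Share of the 28 ketone gene regions called (vertical, %) against the share of all 49587 regions called (horizontal, %), 1 point per library, coloured by genotype; the dashed line marks equal shares. The 4 Ppara-intact libraries sit at the upper right, with 67.9% to 85.7% of the ketone gene regions called, and the 4 Ppara-null libraries at the lower left, with 28.6% to 50%.

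To remove the difference in list length, each list was cut by −log10 p to its strongest 18132 peaks, as many as the shortest one holds. In these equal-number lists 12 and 11 of the 28 regions were called in WT, 10 and 12 in Cpt2 knockout, 12 and 8 in Ppara knockout, and 12 and 10 in double knockout. The difference by Ppara status was then -0.75 regions, within the SD of 0.957 in Ppara-intact and 1.91 in Ppara-null libraries. Acat1 kept 4, 3, 3 and 3 regions in the Ppara-intact libraries and 2, 1, 2 and 2 in the Ppara-null ones, which did not overlap, as in 2.46% of the 814 other genes with 5 regions. Bdh1 kept 5, 4, 4 and 5 against 6, 4, 6 and 5, and Slc16a1 kept 3, 4, 3 and 4 against 4, 3, 4 and 3, both of which overlapped.

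**Figure D2:**
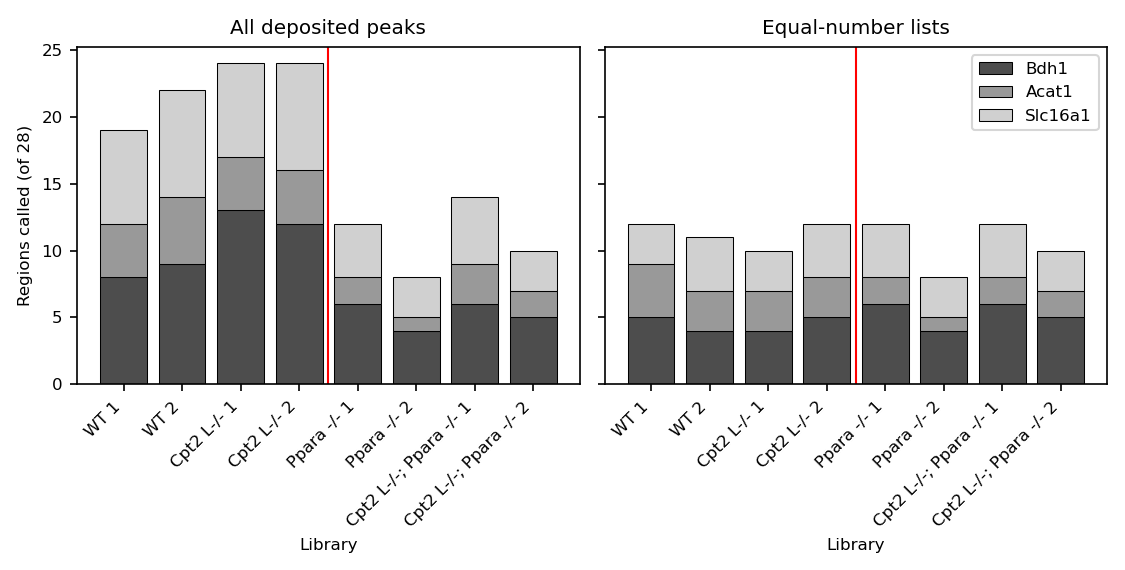
Number of the 28 regions called in each library (vertical), stacked by gene, with all deposited peaks (left) and with the strongest 18132 peaks of each library (right); the red line parts Ppara-intact from Ppara-null libraries. With all peaks the bars reach 19 to 24 on the Ppara-intact and 8 to 14 on the Ppara-null side, and in equal-number lists 10 to 12 and 8 to 12.

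Complete separation by Ppara status, with a call in every Ppara-intact library and in none of the others, was seen at 3 of the 28 regions (10.7%), against 6.82% of all regions. They were 1 Acat1 and 2 Slc16a1 regions. The reverse, calls in Ppara-null libraries alone and in each of them, was seen at 0 of the 28, against 0.0686% of all regions. For each of the 3, the two-sided Fisher's exact p was 0.0286, the smallest that 4 against 4 libraries allow, and the Benjamini-Hochberg adjusted p over all regions was 0.415. Fisher's exact test called 0 regions at an adjusted p under 0.05 in the whole series (0%) and 3418 at an unadjusted p under 0.05. The latter are the regions separated completely in either direction. Since no Fisher's exact p can fall below 0.0286 here, an adjusted p under 0.05 would need most regions of the series to be separated. The 0 was thus all but set by the number of libraries. In equal-number lists 0 of the 28 regions were separated, against 0.811% of all regions. Without WT 1 the count was 5, against 11.8% of all regions, and without double knockout 1 it was 5, against 9.08%.

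The peaks at the separated regions stood below the middle of their lists by −log10 p. The fold is the authors' value for a peak, which MACS2 gives as its summit pileup over the background nearby. Inside Acat1, at chr9:53607198-53607503, the fold was 4.64 and 4.4 in WT and 4.47 and 3.89 in Cpt2 knockout. These peaks stood at percentile 29.9 to 39.0 of their lists. Before Slc16a1, 36.6 kb from the start at chr3:104601696-104602041, the fold was 5.28 and 4.55 in WT and 5.62 and 6.8 in Cpt2 knockout. Beyond Slc16a1, 2.1 kb from the far end at chr3:104660520-104660850, it was 4.71 and 6.47 in WT and 8.24 and 6.47 in Cpt2 knockout. The percentiles ran from 16.1 to 46.6 and from 2.88 to 39.9 at these Slc16a1 regions, and neither was called in any equal-number list, while WT 1 alone kept the Acat1 region there.

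A pair of stronger regions came close to this pattern, and their calls stayed in equal-number lists. Both were picked by their calls in these data, and the share of all regions with such calls was not counted. The region at the start of Bdh1, whose upstream bases are shown above, had a fold of 6.19 and 8.32 in WT, 9.46 and 8.32 in Cpt2 knockout, and 5.56 in double knockout 1. It had no peak in the other 3 Ppara-null libraries. The −log10 p there was 31.9 and 62.3 in WT, 77.5 and 62.3 in Cpt2 knockout, and 22.3 in double knockout 1. The region inside Acat1 at chr9:53601466-53601933 had a fold of 7 and 10.5 in WT, 11 and 9.3 in Cpt2 knockout, and 6.36 in double knockout 1, with no peak in the other 3 Ppara-null libraries. Both regions were called in the 4 Ppara-intact libraries and in double knockout 1 in equal-number lists as well. With a peak in 1 Ppara-null library, the two-sided Fisher's exact p was 0.143 for each, and the adjusted p over all regions was 0.708.

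**Figure D3:**
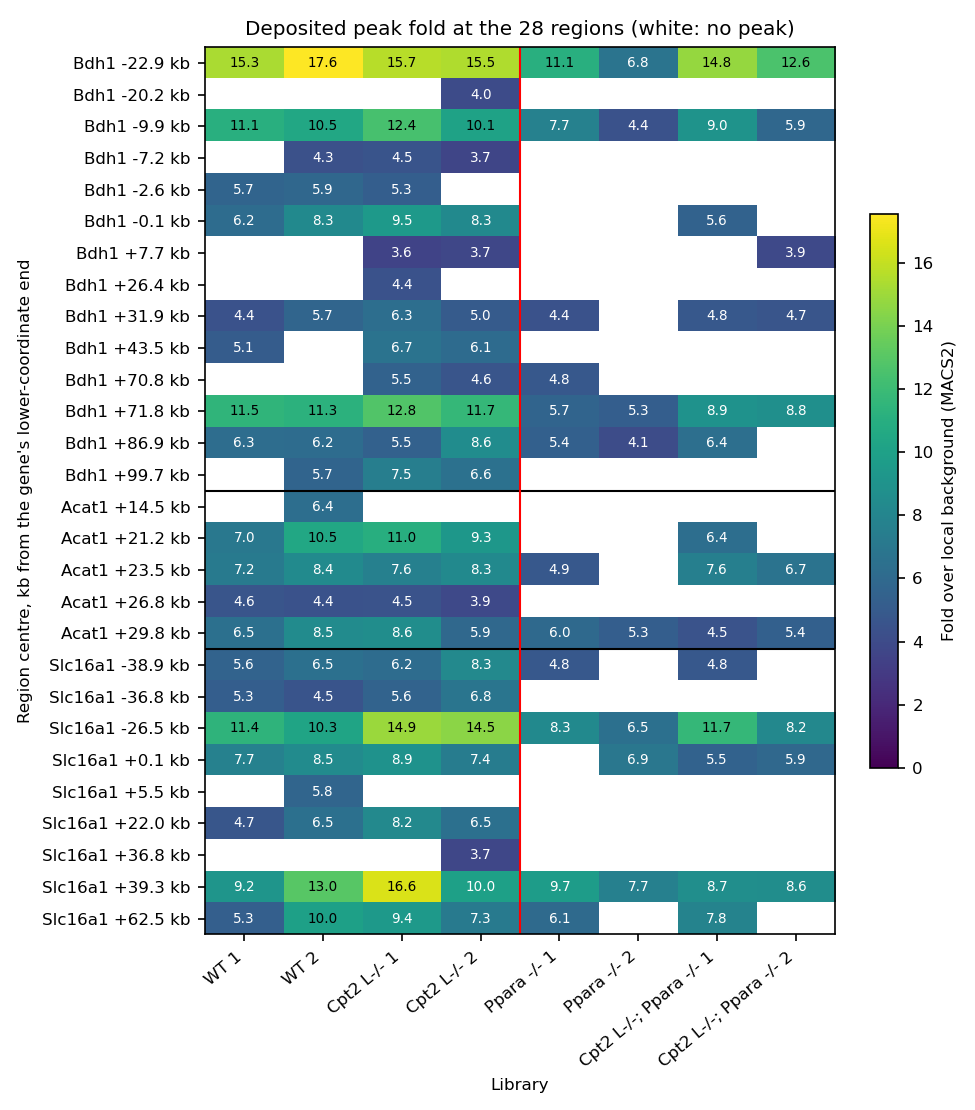
Deposited fold over local background at the 28 regions (rows, named by the distance in kb of the region's centre from the gene's lower-coordinate end) in the 8 libraries (columns); white cells have no peak, black lines part the genes and the red line parts Ppara-intact from Ppara-null libraries. Of the 28 rows, 12 are white in all 4 Ppara-null libraries (42.9%, against 42.3% of all regions) and 0 are white in all 4 Ppara-intact ones (against 5.43% of all regions).

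At the start of Slc16a1, the region was called in 7 libraries, with a fold of 7.69 and 8.47 in WT, 8.94 and 7.38 in Cpt2 knockout, 6.94 in Ppara knockout 2, and 5.49 and 5.94 in double knockout. Ppara knockout 1 had no peak there, although Ppara knockout 2, with the fewest calls over the 28 regions, did. The region was called in the same 7 libraries in equal-number lists. At the upper-coordinate end of Acat1, 4 kb from the neighbouring gene Cul5, the region at chr9:53609989-53610560 was called in all 8 libraries, with a fold of 6.5 and 8.46 in WT, 8.64 and 5.9 in Cpt2 knockout, 5.97 and 5.28 in Ppara knockout, and 4.52 and 5.39 in double knockout. The Ppara-intact and Ppara-null values overlapped there.

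Regions called in all 8 libraries numbered 6 of 28 (21.4%), close to the 22.7% of all regions. Their summits lay within 32 to 115 bp of each other across libraries. The highest fold was at Bdh1, 22.6 kb before the start at chr16:31399112-31399698, with 15.3 and 17.6 in WT, 15.7 and 15.5 in Cpt2 knockout, 11.1 and 6.79 in Ppara knockout, and 14.8 and 12.6 in double knockout. No Ppara-null value reached the lowest Ppara-intact one, and Ppara knockout 2 was the lowest. The other Bdh1 regions of this kind lay 9.6 kb before the start (chr16:31412183-31412674) and 34.9 kb beyond the far end (chr16:31493815-31494477). The former had a fold of 11.1 and 10.5 in WT, 12.4 and 10.1 in Cpt2 knockout, 7.69 and 4.43 in Ppara knockout, and 9.03 and 5.89 in double knockout. The latter had a fold of 11.5 and 11.3 in WT, 12.8 and 11.7 in Cpt2 knockout, 5.68 and 5.26 in Ppara knockout, and 8.94 and 8.75 in double knockout. In each of these regions too, all Ppara-intact values exceeded all Ppara-null ones.

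Slc16a1 had 2 regions called in all 8 libraries. At 26.3 kb before the start (chr3:104611946-104612373) the fold was 11.4 and 10.3 in WT, 14.9 and 14.5 in Cpt2 knockout, 8.33 and 6.47 in Ppara knockout, and 11.7 and 8.23 in double knockout. At 19.3 kb beyond the far end (chr3:104677739-104678242) it was 9.18 and 13 in WT, 16.6 and 9.96 in Cpt2 knockout, 9.69 and 7.67 in Ppara knockout, and 8.67 and 8.63 in double knockout. At both, the ranges overlapped between Ppara-intact and Ppara-null libraries. The 3 of 6 regions without overlap in fold, all at Bdh1, compare with 60% of the 11258 regions called in all 8 libraries. By −log10 p the set differed. The Bdh1 region 22.6 kb before the start and the Slc16a1 region 26.3 kb before the start overlapped. The other regions, at Bdh1, Slc16a1 and Acat1, had every Ppara-intact value above every Ppara-null one. The share of all regions with this order of −log10 p is not given. The mean Ppara-null fold was 0.606 to 0.717 of the mean Ppara-intact fold at the 6 regions, with a median of 0.693, against a median of 0.68 over the 11258 regions.

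Within equal-number lists, ranks can be set side by side. The Bdh1 region 22.6 kb before the start stood at percentile 82.9 to 94.96 of the Ppara-intact and 67.6 to 97.6 of the Ppara-null lists. The region 9.6 kb before the start stood at 49.9 to 73.5 and 19.3 to 76.4, and that beyond the far end at 58.4 to 89.0 and 37.4 to 87.4. Of the 28 regions, 5 were called in all 8 equal-number lists, and at 0 of these did every Ppara-intact percentile exceed every Ppara-null one, against 5.96% of the 9073 regions so called.

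**Figure D4:**
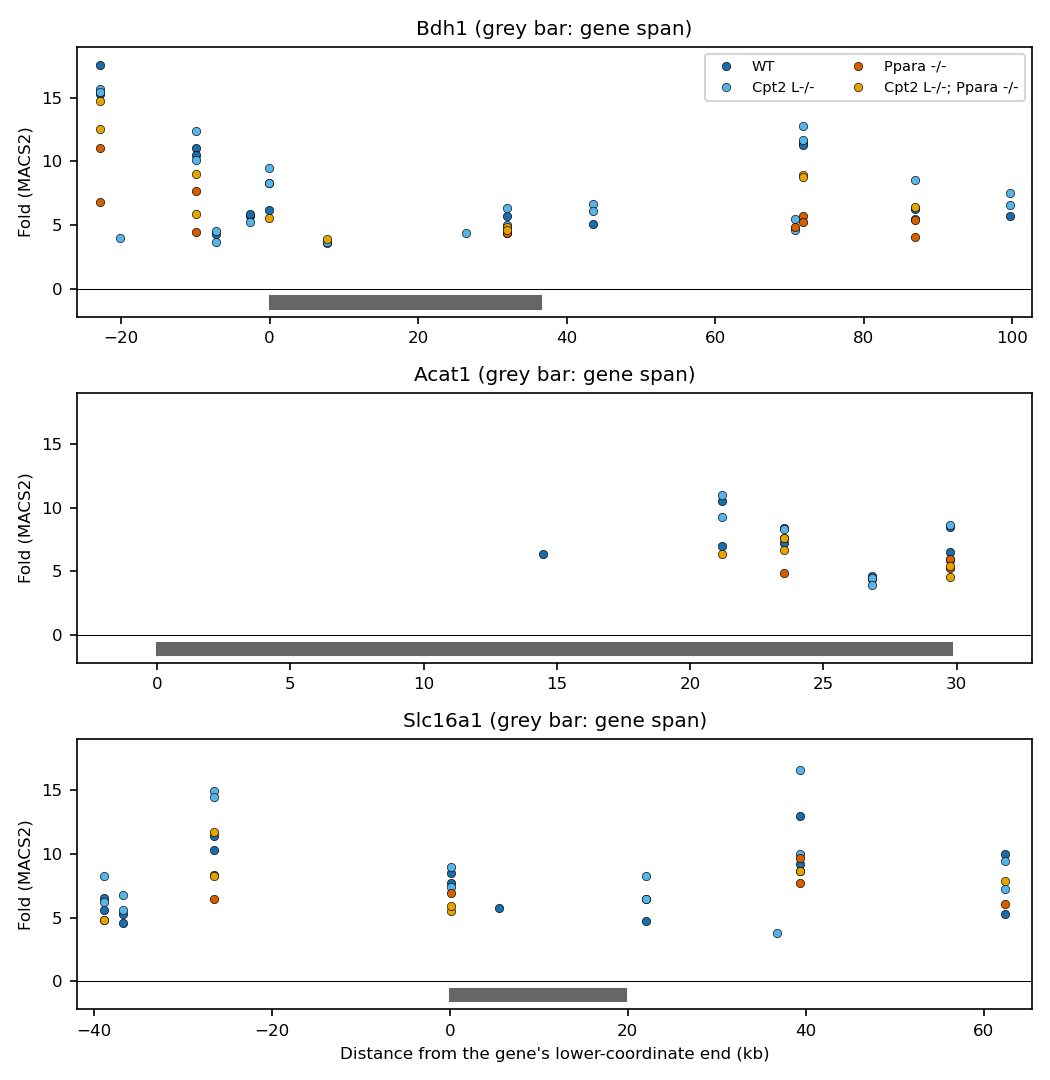
Deposited fold (vertical) at each region against the distance of its centre from the gene's lower-coordinate end in kb (horizontal), 1 panel per gene and 1 point per library with a peak, coloured by genotype; the grey bar is the gene span. At the 3 Bdh1 regions called in all 8 libraries, the points of WT and Cpt2 L-/- lie above those of Ppara -/- and the double knockout, with a lowest Ppara-intact fold of 15.3, 10.1 and 11.3. The same order held at 60% of the 11258 regions of the series called in all 8 libraries.

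Single genotypes were then compared, as regions called in both libraries of one and neither of the other. With 2 libraries against 2 the smallest exact p is 0.333, so no test was made. Ppara knockout lacked 6 of the 28 regions that WT had (21.4%, against 13.6% of all regions), at the start of Bdh1 and 2.5 kb before it, at the Acat1 regions beginning at 53601466 and 53607198, and at both separated Slc16a1 regions. It gained 0, against 0.46% of all regions. In equal-number lists the start of Bdh1 and the Acat1 region at 53601466 were left, 2 of 28 (7.14%, against 3.44% of all regions), and 1 region was gained (against 2.38%), 50.1 kb beyond the far end of Bdh1. Both WT libraries had a peak there too, with a fold of 6.31 and 6.23 against 5.42 and 4.08 in Ppara knockout. The cut dropped these WT peaks from the longer lists. Double knockout lacked 4 regions that WT had (14.3%, against 12.9%), 2 of them at Slc16a1, 1 at Acat1 and 1 at Bdh1, and gained 0 (against 1.2%). In equal-number lists it lacked 0 (against 3.35%) and gained 1 (against 3.08%), the region inside Bdh1 at 31454016. There too the cut dropped a peak of both WT libraries, with a fold of 4.4 and 5.74 against 4.85 and 4.65 in double knockout.

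Against Cpt2 knockout, double knockout lacked 7 regions (25%, against 20.4% of all regions) and gained 0 (against 0.597%). In equal-number lists it lacked 0 (against 2.99%) and gained 1 (against 2.61%), the region inside Bdh1 at 31454016. Both Cpt2 knockout libraries had a peak there with a higher fold, 6.33 and 5.02 against 4.85 and 4.65, which the cut dropped. With all peaks, Bdh1 held 4 of the 7, at 7.1 kb before the start and at 6.8, 34.0 and 62.9 kb beyond the far end. The region 62.9 kb away (chr16:31521775-31522184) had a fold of 5.69 in WT 2 and 7.51 and 6.57 in Cpt2 knockout, and no peak in the other 5 libraries. The region 6.8 kb away (chr16:31465661-31466004) had a fold of 5.11 in WT 1 and 6.66 and 6.14 in Cpt2 knockout, and likewise none elsewhere. These comparisons share libraries with one another, and so are given side by side only.

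By Cpt2 status, 13 of the 28 regions (46.4%, against 38.1% of all regions) were called in more Cpt2-null than Cpt2-intact libraries. A further 11 were called in as many (39.3%, against 42.7%) and 4 in fewer (14.3%, against 19.2%). The median change was 0 for the 28 regions and for all regions. Of the 14 Bdh1 regions, 9 were called in more (64.3%) and 2 in fewer (14.3%). Cpt2-null lists averaged 29012.8 peaks and Cpt2-intact ones 25874.2. In equal-number lists, Cpt2-null libraries called 11 of the 28 regions on average (39.3%, against 36.1% of all regions). Cpt2-intact ones called 10.75 (38.4%, against 36.0% of all regions). Complete differences were few. Cpt2 knockout had 2 regions that WT lacked (7.14%, against 3.63% of all regions) and lacked 0 that WT had (against 0.512%). Both were weak Bdh1 regions. Inside the gene, at chr16:31429751-31430230, the fold was 3.56 and 3.71 in Cpt2 knockout and 3.87 in double knockout 2. At 34.0 kb beyond the far end, at chr16:31492938-31493247, it was 5.5 and 4.64 in Cpt2 knockout and 4.81 in Ppara knockout 1. Neither was called in either Cpt2 knockout library in equal-number lists, where the count was 0 (against 0.918% of all regions). Double knockout against Ppara knockout gave 0 regions in each direction, against 2.33% of all regions for double knockout alone of the pair and 1.45% for Ppara knockout alone. With peaks of a −log10 q of at least 20 alone, 2 regions were called in both double knockout and neither Ppara knockout library (7.14%, against 1.85% of all regions), 34.9 kb beyond the far end of Bdh1 and inside Acat1 at 53603857. By Cpt2 status over all 8 libraries, 0 of the 28 regions had a call in each Cpt2-null library and in no other (against 0.0968% of all regions), and 0 the reverse (against 0.00605%). Without double knockout 1 the former count was 1, the region inside Bdh1 at 31429751, against 0.184% of all regions. Fisher's exact test by Cpt2 status called 0 regions of the series at an adjusted p under 0.05 and 51 at an unadjusted p under 0.05. As for Ppara status, the number of libraries all but set this 0. The 51 are the regions separated completely in either direction.

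Of the 28 regions, 5 were called in a single library (17.9%, against 23% of all regions), in each case a Ppara-intact one (against 18.5% of all regions), among them Acat1 at 53594856 (fold 6.37 in WT 2) and Slc16a1 at 104644059 (fold 5.76 in WT 2). The region inside Bdh1 at chr16:31454016-31454411 was called in every library but Ppara knockout 2, with a fold of 4.4 and 5.74 in WT, 6.33 and 5.02 in Cpt2 knockout, 4.4 in Ppara knockout 1, and 4.85 and 4.65 in double knockout. In equal-number lists it was called in 3 Ppara-null and 0 Ppara-intact libraries. The Bdh1 region 50.1 kb beyond the far end (chr16:31508956-31509361) was called in every library but double knockout 2, with a fold of 6.31 and 6.23 in WT, 5.47 and 8.58 in Cpt2 knockout, 5.42 and 4.08 in Ppara knockout, and 6.4 in double knockout 1, and in 3 Ppara-null and 1 Ppara-intact equal-number lists. The Acat1 region at chr9:53603857-53604223 was called in all but Ppara knockout 2, with a fold of 7.2 and 8.39 in WT, 7.65 and 8.31 in Cpt2 knockout, 4.86 in Ppara knockout 1, and 7.61 and 6.67 in double knockout. The Slc16a1 regions 38.6 kb before the start and 42.5 kb beyond the far end were called in the 4 Ppara-intact libraries, Ppara knockout 1 and double knockout 1.

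Other genes of ketone use, related enzymes and transporters were taken as a list of 14, of which 10 had regions, 38 in all, and Oxct2a, Oxct2b, Slc16a8 and Emb had none. Of the 38 regions, 26 (68.4%, against 66.9% of all regions) were called in fewer Ppara-null than Ppara-intact libraries, 11 in as many and 1 in more, with a median change of -1 library. Complete separation was seen at 2 (5.26%, against 6.82% of all regions), both called only in Ppara-intact libraries, 1 each at Slc16a7 and Bsg. Calls in all 8 libraries were seen at 10 (26.3%, against 22.7% of all regions).

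The separated region near Bsg, which encodes basigin, the partner that brings MCT1 to the plasma membrane, lay 2411 bp from the gene (chr10:79701388-79701947), with a fold of 3.57 and 5.49 in WT and 5.74 and 5.32 in Cpt2 knockout. That inside Slc16a7, which encodes the transporter MCT2 (chr10:125328258-125328661), had a fold of 6.32 and 8.59 in WT and 9.4 and 7.03 in Cpt2 knockout.

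Slc16a7 had the most regions of these genes, 11, of which 7 and 11 in WT, 11 and 8 in Cpt2 knockout, 6 and 4 in Ppara knockout, and 6 and 7 in double knockout were called. Aacs, the cytosolic acetoacetyl-CoA synthetase, had 6, with 5 and 5 in WT, 6 and 4 in Cpt2 knockout, 4 and 4 in Ppara knockout, and 3 and 2 in double knockout called. Acat3 had 6 as well, with 5 and 6 in WT, 5 and 6 in Cpt2 knockout, 4 and 3 in Ppara knockout, and 4 and 2 in double knockout called. Among these, the region at chr17:12924951-12925453, called in all 8 libraries, also overlapped Tcp1. Acat3 is closely related to Acat2, the cytosolic thiolase, so how reads were placed between them is uncertain, and the single region of Acat2 was called in all 8 libraries. Bdh2, a cytosolic dehydrogenase, had 3 regions, with 1 and 2 in WT, 3 and 2 in Cpt2 knockout, 1 and 1 in Ppara knockout, and 1 and 0 in double knockout called. Bsg had 3, with 3 and 3 in WT, 2 and 2 in Cpt2 knockout, 1 and 2 in Ppara knockout, and 1 and 1 in double knockout called. Hmgcll1, a lyase outside mitochondria, had 3, with 1 and 1 in WT, 2 and 1 in Cpt2 knockout, 0 and 0 in Ppara knockout, and 0 and 0 in double knockout called. Oxct1, the transferase with which other tissues use ketone bodies, had 2, with 1 and 1 in WT, 1 and 2 in Cpt2 knockout, 0 and 1 in Ppara knockout, and 1 and 1 in double knockout called. The transporter genes Slc16a3 and Slc16a6 had 1 and 2 regions. None of these, nor any Hmgcll1 region, was called in a Ppara-null library, as was the case for 42.3% of all regions. The Slc16a6 region at chr11:109473208-109473443 also overlapped Arsg, and was called in WT 1 alone.

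Genes whose calls were most like those of each gene were sought among genes with the same number of regions, by the mean absolute difference over the 8 libraries in the share of regions called. For Bdh1, of 63 candidates, Nrp2, Sulf2 and Ptprj each differed by 6.25 percentage points. For Acat1, of 814 candidates, Pigyl differed by 2.5 points and Pak1ip1 by 5. For Slc16a1, of 227 candidates, Clec2d and Igfbp2 differed by 4.17 points and Zcchc2 by 5.56.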

How the data were processed

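ATAC-seq peaks of 8 liver libraries were used. The authors deposited 1 peak list per library, and the submitters' processing notes name BWA, MACS2 2.1.0 and mm10. How duplicates and the transposase offset were handled is not given in the sources used here. The deposited values per peak are a score, the fold over local background (a ratio), the −log10 p and the −log10 q. They describe or rank peaks within a list, and were not tested between libraries. A deposited table, per the file headers on mm10, gave the consensus regions, with no value per region.

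Regions were given to the nearest of 21900 protein-coding genes (RefSeq, GRCm38.p6), and where several peaks overlapped a region the one with the highest −log10 p was used. Calls were compared across all 49587 regions by two-sided Fisher's exact tests with Benjamini-Hochberg adjustment, tested on simulated data. Named are the 3 genes with all their regions, the pathway genes with regions, and the 3 genes most like each (ties by summed fold, then symbol). The genes and lists were chosen with earlier results of these data known, and some genes that the rule names are not reported here. Alternatives were equal-number lists, a −log10 q of at least 20, 50% cover, a 10 kb limit, any gene within 10 kb, each library left out and the replicate number as a block. Python 3.11.15, NumPy 2.4.6, SciPy 1.17.1, pandas 2.3.3 and matplotlib 3.10.9 were used.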

Additional observations from a re-analysis of the deposited data

Results flagged for a closer look

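The fold at the Bdh1 region 22.6 kb before the start was 17.6 in WT 2, apart from the other 3 Ppara-intact libraries, which lay between 15.3 and 15.7. The gap was 0.85 of the range of the 4 values, above Dixon's critical value. Of 14 sets of 4 libraries examined, each pooling 2 genotypes, this was the 1 that passed, and chance passes about 1 in 20.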

How the results depend on the processing

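In equal-number lists the regions separated by Ppara status fell from 3 to 0, the difference in regions called per library moved from -11.25 to -0.75, and the regions differing in a pair of genotypes, summed over the 5 pairs so that a region can count more than once, from 19 to 5. Such lists drop the weaker peaks of the longer lists. The difference per library was -7.5 with a 10 kb limit and -8.25 with any gene within 10 kb, where fewer regions enter. With each library left out, the regions separated by Ppara status numbered 3 to 5 and those by Cpt2 status 0 to 1, and the difference per library was -12.33 to -10.25. Leaving a library out loosens the condition for separation, so the separated counts could only stay or rise. At a −log10 q of at least 20 the separated regions were 2, and at 50% cover 3. The share of all regions is not given at these settings, nor for the sum over pairs. These counts therefore say nothing particular to these genes. With the replicate number as a block, 3 regions were called in the Ppara-intact library alone in all 4 pairs, where the smallest exact sign-flip p is 0.125. Any pairing gives back the separated regions, so the block could not change this count. Same-numbered libraries did not deviate together (correlations of -0.0314 to 0.0255). With 2 libraries per genotype, this cannot tell whether the numbers pair them. The separated regions of the other pathway genes numbered 2 of 38 (5.26%, against 6.82% of all regions). In equal-number lists they numbered 2 of 38 as well (5.26%, against 0.811%), and these need not be the same 2. Depth is unknown, so a missing call cannot be read as closed chromatin.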
